A study of Mus musculus with 18 samples.

Results

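Libraries labelled primary neural stem cells were set against libraries labelled brain, 4 libraries of wild-type mouse RNA in all. The first group, NSC-Scramble, holds 2 libraries labelled as primary neural stem cells of genotype WT, the pair deposited beside NSC-Pex7sh, the same cell type with the genotype PEX7-knockdown. The second group, Ctrl1, holds 2 libraries labelled brain, also of genotype WT, the pair deposited beside PLA1, brain with the genotype PLAAT3-PEX11 overexpression. Genes were taken into the comparison when their mean over the 4 libraries reached 1 RPKM (reads per kilobase of exon, scaled to the reads of the library), which held for 12550 of the 32941 genes in each table. The 2 groups were deposited in different tables, so the source of the RNA and the table cannot be told apart in any difference given here. The labels state neither an age or brain region nor a culture time or vector for these groups, and no label says that the libraries of a pair came from separate animals or cultures. What the p-values measure is thus the scatter of these 4 libraries, possibly a technical one. The series holds 18 libraries in all; 6 of them, WT brain at E11, E12, E13, E14, E16 and E18 with 1 library each, are given beside the 4 as reference levels, without a test.

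Neural stem cells of the developing forebrain, the radial glia, divide at the ventricle, are kept undifferentiated by Sox2 and Notch signalling, and give rise first to neurons, often through intermediate progenitors, and later to astrocytes and oligodendrocytes. In culture they are commonly grown with FGF and EGF, ligands that act through the ERK pathway. Brain tissue also holds microglia, the resident macrophages, as well as endothelium, pericytes, blood and meninges, none of which descends from neural stem cells.

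Between 17215545 and 21041184 reads were recovered per library. Within a pair the libraries were close: the SD of the log2 difference between both NSC-Scramble libraries was 0.295 over the genes tested, and that between both Ctrl1 libraries 0.239, against 1.45 for the difference between the groups. Differences of at least 2-fold were found for 0.725% and 0.558% of genes within the pairs and for 48.9% between the groups. Correlations across genes, which are not independent replicates, were 0.981 between the NSC-Scramble libraries and 0.991 between the Ctrl1 libraries, on the log2(RPKM + 1) scale. Across the groups they lay between 0.596 and 0.618. Each NSC-Scramble library resembled the embryonic brain libraries (0.749 to 0.844) more than each Ctrl1 library did (0.553 to 0.673), although Ctrl1 carries the brain label. The stage table lists some overlapping or multi-copy genes differently: of 1849 protein-coding genes with at least 20 RPKM in all 6 stage libraries, 10 are listed at 0 in all 4 libraries compared here, Snurf among them. Stage levels are therefore side values only.

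With limma and Benjamini-Hochberg adjustment over all genes tested, 10022 genes (79.9%) had an adjusted p under 0.05. In NSC-Scramble 5596 genes (44.6%) were higher and 4426 (35.3%) lower than in Ctrl1. At least a 4-fold difference on the log2(RPKM + 1) scale was reached by 1403 genes (11.2%) on the higher side and 534 (4.25%) on the lower side. The values of both pairs did not overlap for 6254 higher genes (49.8%) and 5106 lower genes (40.7%). Since about 8 in 10 genes differed, a list is read below against these shares and against the median of all genes tested, a log2 difference of 0.16 (quartiles -0.75 to 1.23). A gene near 0 RPKM in 1 group entered only through the other group, so its direction in a list count was set by the filter. Every log2 difference is NSC-Scramble minus Ctrl1 on the log2(RPKM + 1) scale, with n = 2 libraries in each group, and understates the change of genes near 1 RPKM. Where 1 pair of RPKM values is set against another, the 2 NSC-Scramble libraries come first and the 2 Ctrl1 libraries second. For each gene named as higher or lower, both values of one group lie above both of the other. Under median-ratio scaling the median of all genes was 0.005.

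Interferon-response genes were lower in NSC-Scramble almost throughout the list. Of 30 genes found, 29 were tested, 28 were called lower and 0 higher, and 22 of the lower ones differed by at least 4-fold; the median log2 difference was -2.95. Interferons bind cell-surface receptors and switch on this programme through transcription factors that recognise a short element in the promoters of the responding genes. That element, taken here as GAAA, any 2 bases and GAAA again, or on the other strand TTTC, any 2 bases and TTTC, was searched in the 250 bases before each gene start in RefSeq promoters (GRCm38.p6), counting overlapping matches on both strands. It was found in 7 of 16 listed genes that were at least 4-fold lower and had a promoter entry (43.8%), in 10 of 21 of the whole list (47.6%), and in 296 of 9624 genes tested with an entry (3.08%). The motif was thus no rarer over the whole list than among its members with the larger difference, and a match describes the letters of the window, not a bound site. The stretches that hold the matches are shown for 5 of these genes, in the direction of transcription, 5′ to 3′, with the matched letters in capitals.
Ifit1: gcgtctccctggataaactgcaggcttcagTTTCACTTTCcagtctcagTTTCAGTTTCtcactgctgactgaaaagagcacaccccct
Isg15: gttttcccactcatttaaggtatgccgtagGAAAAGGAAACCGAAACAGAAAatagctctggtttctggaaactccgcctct
Ifit3: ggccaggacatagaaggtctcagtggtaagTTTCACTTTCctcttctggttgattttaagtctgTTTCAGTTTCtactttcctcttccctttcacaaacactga
Rsad2: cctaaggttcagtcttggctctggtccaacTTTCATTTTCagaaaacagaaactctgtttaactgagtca
Gbp2: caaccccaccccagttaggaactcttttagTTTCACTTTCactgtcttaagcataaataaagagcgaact
The stretches lie at chr19:34640755-34640843 (plus strand) for Ifit1, chr4:156200845-156200926 (minus strand) for Isg15, chr19:34583343-34583446 (plus) for Ifit3, chr12:26456533-26456602 (minus) for Rsad2 and chr3:142620574-142620643 (plus) for Gbp2. The match nearest to the gene starts 85 bases before the start of Ifit1 and 66 bases before that of Isg15.

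These 5 genes differed in the same direction. Ifit1, whose product binds foreign RNA, was measured at 0.459 and 0.390 RPKM in NSC-Scramble and 17.4 and 19.9 RPKM in Ctrl1, a log2 difference of -3.78 (SE 0.13, adjusted p = 3.62e-06). Isg15, a ubiquitin-like modifier, stood at 1.07 and 2.40 RPKM in NSC-Scramble and 21.7 and 18.1 RPKM in Ctrl1 (log2 difference -2.97). The low pair and the high pair of values were far apart for both genes. Rsad2, the antiviral enzyme viperin, was measured at 0.817 and 0.791 RPKM in NSC-Scramble and 12.4 and 14.5 RPKM in Ctrl1 (log2 difference -3.0). Transcription factors of the response were lower too: Irf9 stood at 3.77 and 3.62 RPKM in NSC-Scramble and 39.1 and 41.6 RPKM in Ctrl1, and Irf7, a factor that amplifies interferon production, at 0.461 and 0.404 against 8.61 and 8.07 RPKM. Usp18, which removes Isg15 from proteins, differed by -4.15, Bst2 (tetherin) by -4.25, Rtp4 by -4.53 and Ifi35 by -4.39 in log2. The exception among those tested was Cxcl10, a chemokine, with 1.62 and 1.74 RPKM in NSC-Scramble and 2.13 and 2.62 RPKM in Ctrl1 and an adjusted p of 0.0859. Summed over the list, 47.9 and 50.5 RPKM were found in the NSC-Scramble libraries and 632 and 599.6 RPKM in the Ctrl1 libraries. The 6 stage brains held 17.1 to 25.3 RPKM, so that Ctrl1 stood above both NSC-Scramble and embryonic brain.

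Microglial markers were likewise lower in NSC-Scramble. Of 16 tested, 15 were called lower and 0 higher, 10 of them by at least 4-fold, with a median of -2.99. C1qa, a chain of the first complement component (ENSMUSG00000036887, GRCm38 chr4:136895917-136898803, minus strand), was measured at 0.838 and 0 RPKM in NSC-Scramble and 207 and 197 RPKM in Ctrl1, and C1qb at 0.534 and 0.10 against 135 and 111 RPKM. The NSC-Scramble values of both lie below 1 RPKM, while all 4 Ctrl1 values exceed 100. Csf1r, the receptor on which microglia depend for survival, stood at 0.644 and 0.132 RPKM in NSC-Scramble and 31.1 and 35.3 RPKM in Ctrl1 (log2 difference -4.64, SE 0.19, adjusted p = 5.2e-06), and Cx3cr1, the fractalkine receptor, at 0.374 and 0.0483 against 22.4 and 20.2 RPKM. Aif1 (Iba1) differed by -2.35, Ctss (cathepsin S) by -4.82 and Tmem119, a marker of mature microglia, by -4.44. Lyz2, the macrophage lysozyme, was the marker with most RNA in NSC-Scramble, at 26 and 8.23 RPKM, beside 308 and 275 RPKM in Ctrl1. Its NSC-Scramble values differed from each other more than 3-fold. Tyrobp did not pass the test, with 1.57 and 0.0816 RPKM in NSC-Scramble and 3.81 and 1.43 RPKM in Ctrl1 (adjusted p = 0.0799). The summed markers came to 45.7 and 21.7 RPKM in NSC-Scramble, 862 and 786 RPKM in Ctrl1 and 40.7 to 79 RPKM in the stage brains. In bulk RNA fewer cells of a type and less RNA per cell cannot be told apart.

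Antigen presentation followed the same direction. In the MHC class I list 10 of 12 tested genes were lower and 1 higher. B2m, the invariant light chain, was measured at 54.8 and 58.7 RPKM in NSC-Scramble and 333 and 316 RPKM in Ctrl1, a log2 difference of -2.49 (SE 0.10, adjusted p = 5.03e-06), and the heavy chain H2-K1 at 14.3 and 14.4 against 91.1 and 84.6 RPKM. The peptide transporter genes Tap1 and Tap2 differed by -1.53 and -1.88, and Tapbp, which links them to MHC molecules, by -2.75. H2-Q4 was the member higher in NSC-Scramble, at 1.61 and 2.31 RPKM in NSC-Scramble and 0.0942 and 0.293 RPKM in Ctrl1. MHC heavy chains are near-identical copies, so reads may have been split between them. Interferon, microglial and MHC genes moved together between the groups, and the part of either cell type or table in the interferon difference was not tested.

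Most markers of vessels, blood and meninges had a mean under 1 RPKM over the 4 libraries. Of the endothelial list, 2 of 19 genes reached 1 RPKM on average, the transporters Slc2a1 and Mfsd2a, which neural cells also express. Slc2a1 was read at 11.2 and 6.62 RPKM in NSC-Scramble and 37.5 and 38.3 RPKM in Ctrl1, and the whole list summed to 23.5 and 18.8 RPKM in NSC-Scramble, 57.6 and 56.2 RPKM in Ctrl1 and 94.3 to 136 RPKM in the stage brains. Cldn5, the tight-junction protein of brain vessels, was read at 0 and 0 RPKM in NSC-Scramble, 0 and 0.0671 RPKM in Ctrl1 and 9.92 to 30.3 RPKM in the stage brains. Pecam1 stood at 0.168 and 0.166 RPKM in NSC-Scramble and 0.675 and 0.618 RPKM in Ctrl1, beside 2.28 to 3.06 RPKM in the stages. The summed pericyte, meningeal and fibroblast markers came to 13.8 and 12.7 RPKM in NSC-Scramble and 4.47 and 5.05 RPKM in Ctrl1. Haemoglobin Hba-a1 was measured at 1.07 and 3.22 RPKM in NSC-Scramble and 3.25 and 8.43 RPKM in Ctrl1, against 209 to 1759.9 RPKM in the stage brains. The erythroid list as a whole summed to 16.5 and 19.8 RPKM in NSC-Scramble, 28.1 and 31.9 RPKM in Ctrl1 and 276 to 7068 RPKM in the stage brains. Summed over the lists, Ctrl1 thus held more microglial and less endothelial and erythroid RNA than each of the embryonic brain libraries. The choroid plexus gene Ttr was listed at 0 in both Ctrl1 libraries and at 28.3 and 185 RPKM in NSC-Scramble, where the libraries differ by more than 6-fold; the choroid plexus and ependymal list summed to 41.3 and 209 RPKM in NSC-Scramble and 1.35 and 1.81 RPKM in Ctrl1.

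**Figure D1:**
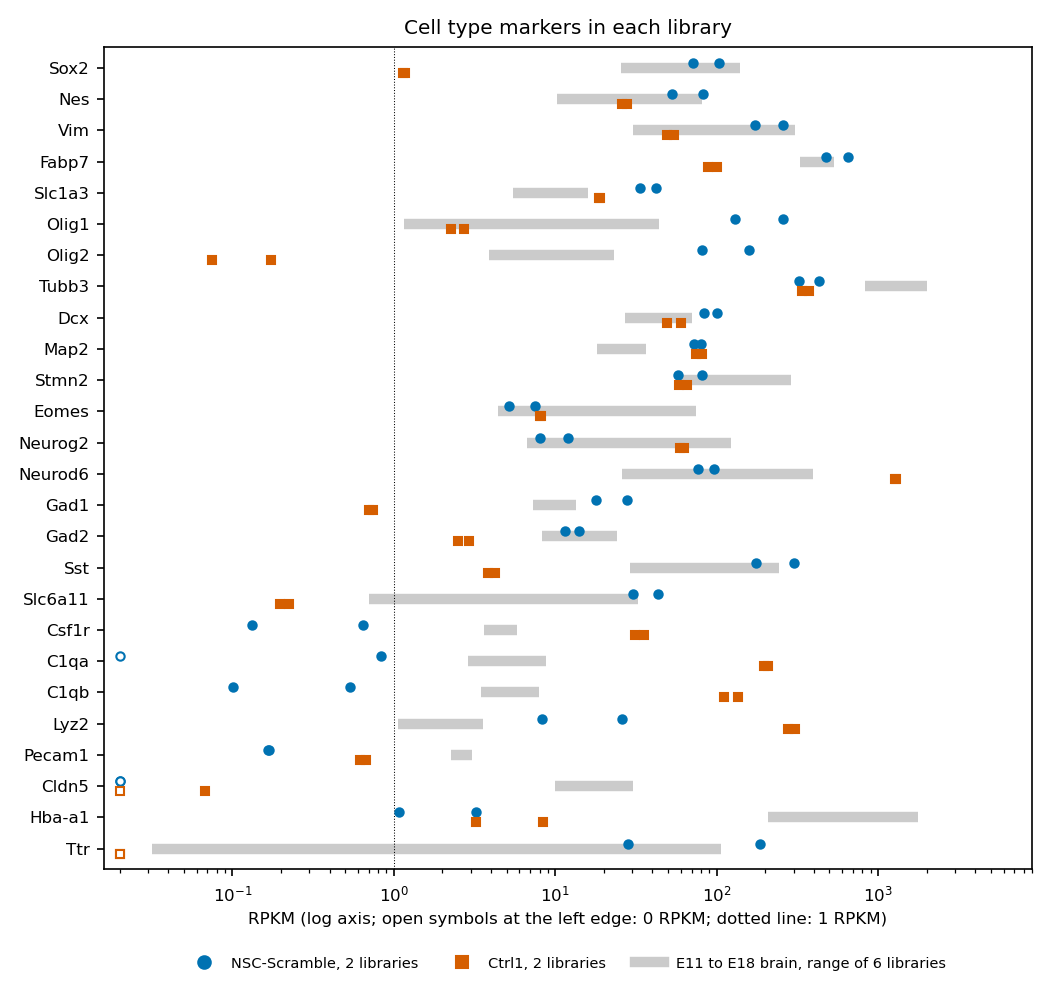
Levels of 26 cell type markers in RPKM on a log axis: circles are the 2 NSC-Scramble libraries, squares the 2 Ctrl1 libraries and grey bars the range of the 6 embryonic brain libraries. Sox2, Olig2, Gad1 and Sst lie well to the right for NSC-Scramble, Csf1r, C1qa, C1qb and Neurod6 for Ctrl1, and pan-neuronal Tubb3 and Map2 coincide.

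Radial glial genes did not move as one list. Of 31 tested, 16 were higher and 9 lower in NSC-Scramble, not far from the 44.6% and 35.3% of all genes tested. Their median log2 difference was 0.58 beside 0.16 for all genes. The median was 0.30 without the first and 0.86 without the second NSC-Scramble library, and 26 of the 31 genes were higher in the first than in the second. Sox2, the transcription factor that holds neural stem cells undifferentiated (ENSMUSG00000074637, GRCm38 chr3:34650405-34652461, plus strand), was measured at 103 and 71.5 RPKM in NSC-Scramble and 1.16 and 1.13 RPKM in Ctrl1, a log2 difference of 5.34 (SE 0.18, adjusted p = 3.47e-06). Both PLA1 libraries of the Ctrl1 table read 1.51 and 2.20 RPKM, and the stage brains 25.4 to 139 RPKM. The Ctrl1 value is therefore far below that of embryonic brain at any stage measured, although Sox9, a regulator of glial fate, was higher in Ctrl1 (35.4 and 20.4 against 61.9 and 66.8 RPKM, adjusted p = 0.0506 without the second Ctrl1 library). The intermediate filament genes Nes and Vim were both higher in NSC-Scramble. Nes stood at 81.8 and 52.6 RPKM in NSC-Scramble and 25.7 and 27.8 RPKM in Ctrl1. Vim was at 258 and 173 against 54.1 and 49.5 RPKM. With the GC and length trend removed, an alternative described below, the difference of Nes was 0.41 with an adjusted p of 0.0825. Fabp7, a fatty acid binding protein of radial glia, stood at 654 and 478 RPKM in NSC-Scramble and 100.1 and 88.7 RPKM in Ctrl1 (log2 difference 2.56), and Slc1a3, the glial glutamate transporter, at 42 and 33.5 against 18.6 and 18.9 RPKM.

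Niche and growth factor receptor genes of radial glia were higher in NSC-Scramble as well. Tnc, a matrix glycoprotein of the stem cell niche, was measured at 80.4 and 51.8 RPKM in NSC-Scramble and 2.62 and 3.14 RPKM in Ctrl1, and Egfr, the EGF receptor, at 20.4 and 12.6 against 0.0907 and 0.109 RPKM. Egfr in the stage brains ranged from 0.0298 to 1.15 RPKM, so its level in NSC-Scramble exceeded that of all 6. In the opposite direction stood Hes5, a Notch target that blocks neuronal differentiation, at 5.20 and 3.72 RPKM in NSC-Scramble and 87.8 and 83.6 RPKM in Ctrl1 (log2 difference -4.0), with Prom1 at -2.04, Hopx at -1.83 and Pax6 at -1.19. Hes1 did not pass the test, at 12 and 7.11 RPKM in NSC-Scramble and 7.27 and 9.99 RPKM in Ctrl1 (adjusted p = 0.699).

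Most oligodendrocyte-lineage and astrocyte genes tested were higher in NSC-Scramble. Of 18 oligodendrocyte-lineage genes found, 11 reached a mean of 1 RPKM. Of these, 10 were higher and 1 lower, with a median of 1.55, beside 44.6% and 35.3% of all genes tested. The list summed to 461 and 250 RPKM in NSC-Scramble and 12.6 and 13.9 RPKM in Ctrl1. Members near 0 in Ctrl1 entered only through NSC-Scramble, so the filter partly sets the direction of this count. Olig2, the factor that specifies oligodendrocyte precursors and ventral progenitors, was measured at 159 and 81.2 RPKM in NSC-Scramble and 0.174 and 0.0751 RPKM in Ctrl1, a log2 difference of 6.68 (SE 0.29, adjusted p = 5.57e-06), and its neighbour Olig1 at 258 and 129.7 against 2.26 and 2.73 RPKM. Both exceeded their stage ranges of 3.90 to 23.3 and 1.15 to 44 RPKM, and both were nearly 2 times as high in the first NSC-Scramble library as in the second. Pdgfra, the growth factor receptor of oligodendrocyte precursors, was low in both groups, at 3.85 and 1.43 RPKM in NSC-Scramble and 0.117 and 0.228 RPKM in Ctrl1, and lost its call without the first Ctrl1 library (adjusted p = 0.0538).

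In the astrocyte list, 14 of 19 genes reached 1 RPKM, of which 9 were higher and 2 lower (median 1.59). Slc6a11, a GABA transporter of astrocytes, was measured at 43.1 and 30.3 RPKM in NSC-Scramble and 0.223 and 0.198 RPKM in Ctrl1. Aldh1l1, a folate enzyme used as an astrocyte marker, stood at 29.98 and 21.4 RPKM in NSC-Scramble and 3.29 and 2.94 RPKM in Ctrl1, and Glul, which makes glutamine, at 57.2 and 46.5 against 9.33 and 9.68 RPKM. The mature markers Aqp4 and Gfap were low in all 4 libraries, with at most 1.36 RPKM for Aqp4 and 1.52 RPKM for Gfap, and entered no test. Apoe, a lipid carrier made by astrocytes and microglia, was lower in NSC-Scramble (41.4 and 48.2 against 205 and 204 RPKM).

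Neuronal RNA was abundant in both groups, against the stem cell label of NSC-Scramble. Tubb3, the neuronal tubulin, was measured at 324 and 432 RPKM in NSC-Scramble and 375 and 337 RPKM in Ctrl1 (adjusted p = 0.696), Map2, the dendritic microtubule protein, at 72.1 and 80.4 against 74.8 and 81.5 RPKM, and Stmn2 at 58 and 80.9 against 65.1 and 58.8 RPKM. None of these 3 passed the test, and the values of both groups overlap for each, although Map2 was -0.64 (adjusted p = 0.000696) with the GC and length trend removed and Stmn2 passed without the first NSC-Scramble library (adjusted p = 0.0325). Dcx, which marks migrating neurons, was higher in NSC-Scramble, at 83.3 and 100.3 RPKM in NSC-Scramble and 49.6 and 60.1 RPKM in Ctrl1 (log2 difference 0.73). In the pan-neuronal list 16 of 25 genes were higher and 5 lower, with a median of 0.73; with the GC and length trend removed 12 were higher and 7 lower, with a median of 0.23. Stmn4, a neuronal microtubule regulator, stood at 132 and 175 RPKM in NSC-Scramble and 14.3 and 15.8 RPKM in Ctrl1, while Elavl4, an RNA-binding protein of neurons, was lower (13.5 and 16.5 against 61 and 64.1 RPKM). Only 1 of the 25 was higher in the first NSC-Scramble library than in the second.

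The genes of neurogenesis itself were mostly lower in NSC-Scramble. Of 17 intermediate progenitor and proneural genes, 11 were lower, 10 of these by at least 4-fold, and 4 higher; the median log2 difference was -2.52. Neurog2, the proneural factor of the cortex, was measured at 12 and 8.02 RPKM in NSC-Scramble and 62.8 and 59.3 RPKM in Ctrl1, and Neurog1 at 0.103 and 0.291 against 14.6 and 16 RPKM. Neurod6, a factor of young pyramidal neurons, stood at 76.9 and 95.7 RPKM in NSC-Scramble and 1299 and 1281 RPKM in Ctrl1 (log2 difference -3.89, SE 0.14, adjusted p = 3.85e-06), and the Ctrl1 values exceed the stage range of 26.1 to 398 RPKM. Mfng, which glycosylates Notch, differed by -4.30, the somatostatin receptor Sstr2 by -4.21, the cell cycle exit gene Btg2 by -3.52, Gadd45g by -3.31 and Hes6 by -2.87. Eomes (Tbr2), the defining factor of intermediate progenitors, did not pass the test, at 7.45 and 5.16 RPKM in NSC-Scramble and 8.19 and 8.0 RPKM in Ctrl1 (adjusted p = 0.106, and 0.0191 without the first NSC-Scramble library). Insm1 (1.97) and Tbr1 (1.15) went the other way.

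Most interneuron and ventral forebrain genes were higher in NSC-Scramble. Of 18 tested, 15 were higher, 9 of these by at least 4-fold, and 1 lower (median 2.09). Gad1, the enzyme that makes GABA, was measured at 17.8 and 27.9 RPKM in NSC-Scramble and 0.743 and 0.697 RPKM in Ctrl1, and Slc32a1, which loads GABA into vesicles, at 15.9 and 22.3 against 0.0350 and 0.0680 RPKM. Sst, the somatostatin peptide of one interneuron class, stood at 175 and 301 RPKM in NSC-Scramble and 4.20 and 3.82 RPKM in Ctrl1, a log2 difference of 5.52 (SE 0.24, adjusted p = 5.4e-06). Nkx2-1 and Lhx8, factors of the medial ganglionic eminence, read 4.97 and 6.21 and 4.36 and 5.78 RPKM in NSC-Scramble and were listed at 0 in both Ctrl1 libraries. The exception on the lower side was Sp8 (log2 difference -1.14), and Dlx1 did not pass the test (13.1 and 16.1 against 17 and 16.8 RPKM, adjusted p = 0.172, and 0.0308 without the second NSC-Scramble library).

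Dorsal forebrain factors were lower more often than higher in NSC-Scramble. Of 14 dorsal forebrain factors, 4 were higher and 9 lower (median -0.92). Emx1, a marker of dorsal progenitors and their neurons, was measured at 9.18 and 11.7 RPKM in NSC-Scramble and 26.2 and 26.5 RPKM in Ctrl1, Emx2 at 7.99 and 6.71 against 11.7 and 12.5 RPKM and Tfap2c at 2.83 and 3.58 against 48.3 and 53.7 RPKM. Nr2f1 (COUP-TFI), a factor of caudal and ventral areas, differed by 3.56. None of 29 posterior and midbrain factors reached a mean of 1 RPKM; the highest were Zic4, at 1.21 and 2.12 RPKM in NSC-Scramble and 0.151 and 0.161 RPKM in Ctrl1, and Otx2, at 1.58 and 2.04 against 0.0348 and 0.0113 RPKM, and 10 of the 29 were at 0 in all 4 libraries. Of 11 genes of Cajal-Retzius cells, the first neurons of the cortical surface, 6 were higher and 1 lower. Layer factors of the cortex were mixed: of 12 deep-layer genes 3 were higher and 6 lower, with Fezf2 at 13.5 and 20.4 RPKM in NSC-Scramble and 56.2 and 54.6 RPKM in Ctrl1 and Sox5 at 5.43 and 6.42 against 58.3 and 61.1 RPKM. Of 12 upper-layer genes 5 were higher and 2 lower, but 4 were higher and 7 lower with the GC and length trend removed, where their median turned from 0.18 to -0.56.

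Most genes for synapses and excitability were higher in NSC-Scramble. Called higher were 17 of 26 synaptic vesicle genes, 22 of 26 glutamate and GABA receptor genes and 24 of 26 voltage-gated channel genes, beside 44.6% of all genes tested, and called lower were 1, 0 and 0. Their medians were 1.25, 1.53 and 1.92, against 0.16 for all genes tested. Dnm1, the neuronal dynamin that retrieves vesicles, was measured at 31.8 and 44.8 RPKM in NSC-Scramble and 1.19 and 1.42 RPKM in Ctrl1, a log2 difference of 4.07 (SE 0.18, adjusted p = 5.45e-06). Syt1, the calcium sensor of release, stood at 22.8 and 33.8 RPKM in NSC-Scramble and 11.7 and 13.9 RPKM in Ctrl1, whereas Snap25, a partner in the same fusion complex, did not pass the test (23.4 and 34.4 against 33.9 and 32.3 RPKM) but was lower without the second NSC-Scramble library (-0.48). Among receptors, Gria2 was at 38.6 and 44.3 RPKM in NSC-Scramble and 10.8 and 11.1 RPKM in Ctrl1 and the kainate receptor Grik5 at 38.8 and 43.4 against 0.568 and 0.754 RPKM. The potassium channel Kcnc1 stood at 37.2 and 27 RPKM in NSC-Scramble and 0.724 and 0.744 RPKM in Ctrl1 and the calcium channel Cacna1b at 19.6 and 24.2 against 2.12 and 1.91 RPKM. Slc17a6, the vesicular glutamate transporter of young neurons, was the synaptic gene that was lower in NSC-Scramble (5.37 and 8.79 against 21.5 and 17 RPKM). Channel genes are long and several are GC-rich, and with the GC and length trend removed the 3 medians were 0.80, 1.13 and 1.0.

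**Figure D2:**
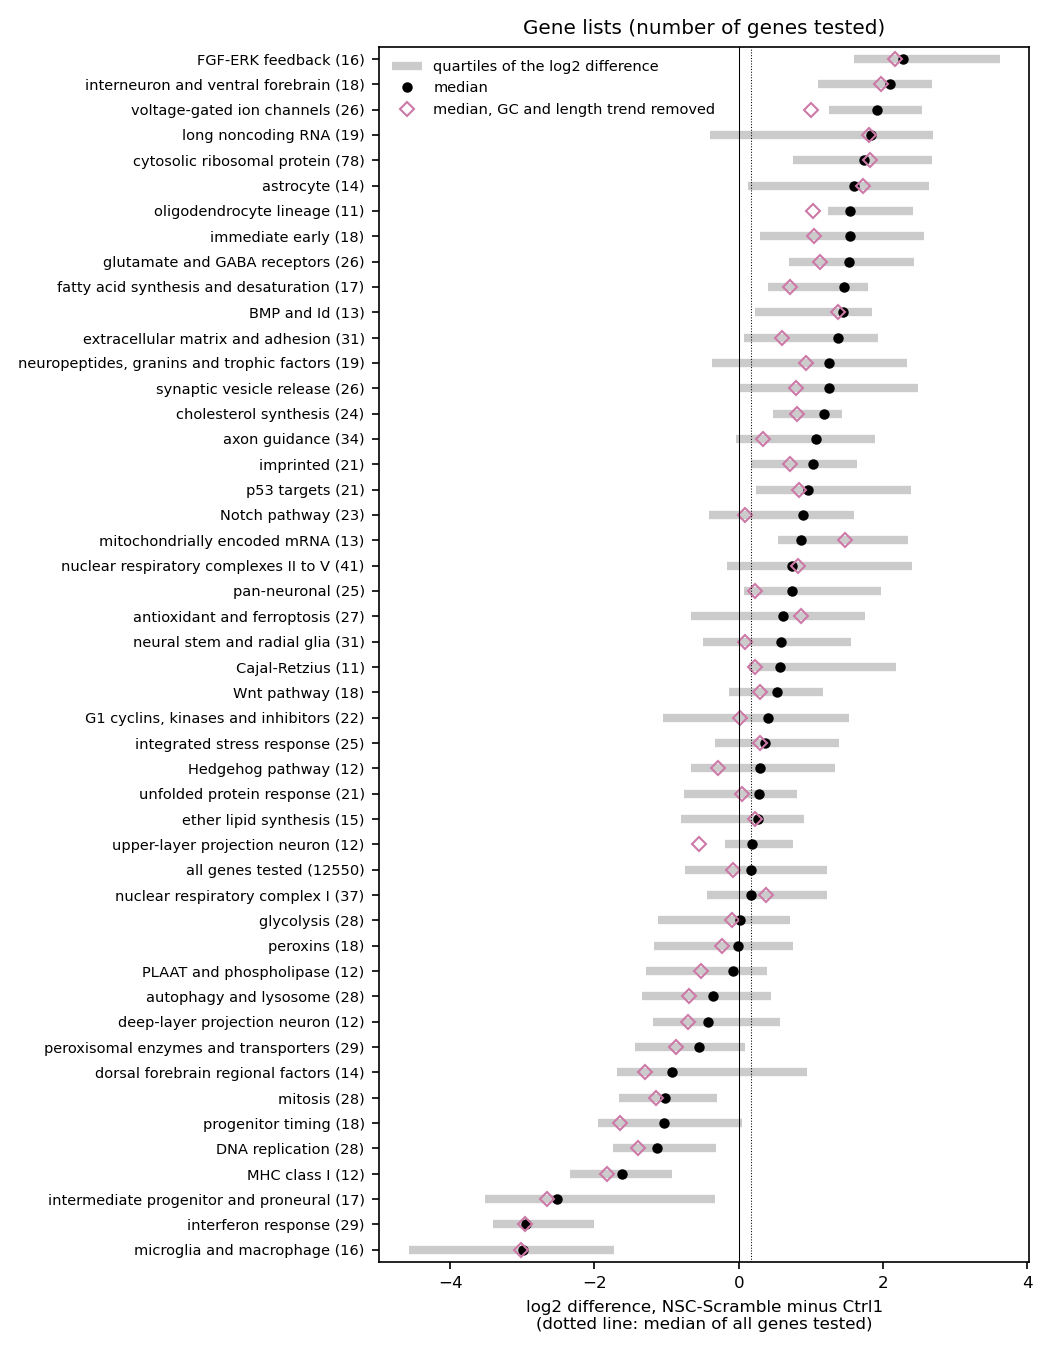
Median log2 difference (NSC-Scramble minus Ctrl1) of each list with at least 10 tested genes: black circles are medians, grey bars the quartiles and open diamonds the medians after removal of the GC and length trend. The microglial and interferon lists lie near -3 on both measures, and the FGF-ERK feedback and interneuron lists above 2 or close to it.

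Most genes of DNA replication and mitosis were lower in NSC-Scramble than in Ctrl1. Of 28 replication genes 19 were lower and 3 higher (median -1.14), and of 28 mitotic genes 18 were lower and 3 higher (median -1.03). Mcm2, a subunit of the replicative helicase, was measured at 19.6 and 11.9 RPKM in NSC-Scramble and 59.8 and 64.4 RPKM in Ctrl1, and Cdc6, which loads that helicase, at 4.85 and 2.74 against 14.7 and 16 RPKM. Cdc20, which starts anaphase, stood at 65.8 and 39.6 RPKM in NSC-Scramble and 207 and 199 RPKM in Ctrl1 and the mitotic kinase Aurka at 16.1 and 9.77 against 60.4 and 63.8 RPKM. The groups do not overlap for any of these 4 genes, but the first NSC-Scramble library lay between the second and Ctrl1 each time. All 28 replication and all 28 mitotic genes were higher in the first NSC-Scramble library than in the second, by a median log2 difference of 0.63 and 0.76, against 0.0016 over all genes tested. Without the second NSC-Scramble library the medians of the lists were -0.82 and -0.64.

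Individual cell cycle genes departed from that direction. Mki67, the proliferation antigen, was higher in NSC-Scramble (37.5 and 18.7 against 12.8 and 14.3 RPKM, log2 difference 0.93), as was Cdk1 (14 and 7.43 against 3.79 and 3.90 RPKM). Mki67 did not pass without the first or without the second Ctrl1 library (adjusted p = 0.168 and 0.122), nor did Cdk1 (0.0623 and 0.0576). Top2a did not pass the test, at 34.2 and 18.9 RPKM in NSC-Scramble and 35.7 and 35.3 RPKM in Ctrl1, but was lower without the first NSC-Scramble library (log2 difference -0.88, adjusted p = 0.00252). Pcna, the polymerase clamp, was measured at 84.4 and 55.4 RPKM in NSC-Scramble and 6.52 and 5.11 RPKM in Ctrl1, a log2 difference of 3.36 (SE 0.21, adjusted p = 1.56e-05). Mcm2, another replication gene, was lower. Of 22 G1 regulators 11 were higher and 8 lower, near the 44.6% and 35.3% of all genes tested. Ccnd1 and Ccnd2, the D-type cyclins of neural progenitors, did not pass the test, at 72.3 and 45.6 RPKM in NSC-Scramble and 50.7 and 51 RPKM in Ctrl1 for Ccnd1 and 77.4 and 53.6 against 84.7 and 85 RPKM for Ccnd2; Ccnd1 was higher without the second NSC-Scramble library (0.50) and Ccnd2 lower without the first (-0.65). The inhibitor Cdkn1a (p21), a p53 target, stood at 43.7 and 47.6 RPKM in NSC-Scramble and 2.28 and 2.37 RPKM in Ctrl1, and Cdk5r1, an activator of the neuronal kinase Cdk5, at 96.1 and 129 against 2.62 and 3.54 RPKM. Mycn, a growth regulator of progenitors, was lower (21.3 and 25.3 against 137 and 136 RPKM). In the list of progenitor timing genes 11 of 18 were lower and 3 higher; Igf2bp1, an early-stage RNA-binding protein, differed by -2.89, and Nfia and Nfib, which open the gliogenic phase, by -2.15 and -1.68.

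ERK-pathway feedback genes had the highest median of the lists with at least 10 tested genes, 2.27. These genes are induced by FGF and EGF receptor signalling and dampen it in turn. Of 16 tested, 13 were higher, 11 of them by at least 4-fold, and 1 lower. Spry4, an inhibitor of receptor signalling, was measured at 26.6 and 14.9 RPKM in NSC-Scramble and 0.0514 and 0.340 RPKM in Ctrl1, and Spry2 at 47 and 36.8 against 1.05 and 1.05 RPKM, a log2 difference of 4.38 (SE 0.14, adjusted p = 3.32e-06). Dusp6, the phosphatase that acts on ERK, stood at 40.6 and 29.9 RPKM in NSC-Scramble and 9.84 and 9.98 RPKM in Ctrl1, and the ERK-regulated factor Etv4 at 27.8 and 18.7 against 0.378 and 0.490 RPKM. The receptor Fgfr1 was higher as well (24.6 and 19.6 against 3.89 and 3.83 RPKM). Fgf15 was the lower member, at 0.133 and 0.178 RPKM in NSC-Scramble and 2.06 and 1.63 RPKM in Ctrl1, and Dusp4 did not pass the test (36.4 and 45.1 against 42.3 and 41.2 RPKM).

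Immediate early genes, which ERK and calcium signals induce within minutes, were higher in 11 and lower in 2 of 18 cases. Egr1 was measured at 66 and 45.1 RPKM in NSC-Scramble and 0.861 and 1.63 RPKM in Ctrl1, Nr4a1 at 12.2 and 16.1 against 0.181 and 0.163 RPKM and Arc, a neuronal activity gene, at 13.3 and 7.34 against 1.39 and 1.82 RPKM. Fos did not pass the test, at 12.7 and 14.6 RPKM in NSC-Scramble and 11.1 and 10.9 RPKM in Ctrl1, but was higher by 0.37 without the first NSC-Scramble library. Jun did not pass it either, at 112 and 118 RPKM in NSC-Scramble and 108 and 119.9 RPKM in Ctrl1. Btg2 and Ier2 were lower, with log2 differences of -3.52 and -1.64.

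In the Notch pathway 14 of 23 genes were higher and 6 lower, beside 44.6% and 35.3% of all genes tested. The receptor Notch1 was measured at 12 and 7.52 RPKM in NSC-Scramble and 2.93 and 3.45 RPKM in Ctrl1 and the ligand Jag2 at 10.2 and 11.9 against 0.456 and 0.587 RPKM, whereas the ligand Dll3 was lower (12.9 and 6.30 against 39.4 and 35.9 RPKM) and Dll1 did not pass the test (17.9 and 11.6 against 18.9 and 21.9 RPKM, adjusted p = 0.0656, and 0.0127 without the first NSC-Scramble library). The glycosyltransferases of Notch were unequal, with Lfng at 23.8 and 12.7 RPKM in NSC-Scramble and 1.23 and 2.09 RPKM in Ctrl1 and Mfng at 5.83 and 3.51 against 108 and 109 RPKM. Hes5 and Hey1, targets of the pathway, were both lower (-4.0 and -1.44), opposite to Notch1, whose own difference was 0.09 with the GC and length trend removed. Of 13 BMP genes 9 were higher and 2 lower; Id3, a BMP target, stood at 15.6 and 12.2 RPKM in NSC-Scramble and 2.92 and 3.21 RPKM in Ctrl1, Id1 did not pass the test (8.96 and 7.89 against 9.53 and 8.40 RPKM), and Id2 was lower (33.3 and 40.4 against 148 and 145 RPKM). Of 18 Wnt genes 10 were higher and 3 lower, with the target Axin2 at 6.96 and 6.89 RPKM in NSC-Scramble and 0.222 and 0.406 RPKM in Ctrl1. Of 12 Hedgehog genes 6 were higher and 5 lower, near the shares of all genes tested. Ptch1, receptor and target of the pathway, was at 6.06 and 5.16 RPKM in NSC-Scramble and 0.614 and 0.740 RPKM in Ctrl1. Gli1 and Shh were too low to be tested. Matrix and adhesion genes were higher in 22 of 31 cases and lower in 4, with fibronectin (Fn1) at 14.3 and 16.4 RPKM in NSC-Scramble and 3.44 and 3.71 RPKM in Ctrl1 and the integrin Itgb5 at 24.7 and 20.8 against 1.79 and 1.79 RPKM.

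Stress pathways did not move together. Of 21 p53 targets 15 were higher and 4 lower. Bbc3 (Puma), a death effector, was measured at 66.8 and 76.5 RPKM in NSC-Scramble and 2.49 and 2.30 RPKM in Ctrl1 and Phlda3 at 34.7 and 35.7 against 1.41 and 1.04 RPKM, while Mdm2 (-0.88), Bax (-1.39) and Sesn1 (-2.27) were lower. In the integrated stress response 12 of 25 genes were higher and 8 lower, near the 44.6% and 35.3% of all genes tested. Its effector Atf4 did not pass the test (102 and 105 against 125 and 115 RPKM). Slc7a5, an amino acid transporter, was at 119 and 121 against 6.13 and 7.72 RPKM, and the serine synthesis enzyme Phgdh was lower (75.5 and 53.2 against 261 and 270.3 RPKM). Of 21 unfolded protein response genes 11 were higher and 9 lower, beside the same shares of all genes.

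Most sterol and fatty acid synthesis genes were higher in NSC-Scramble. Of 24 cholesterol genes 19 were higher and 1 lower (median 1.19), and of 17 fatty acid genes 12 were higher and 3 lower (median 1.46, and 0.71 with the GC and length trend removed). Hmgcs1, an early enzyme of cholesterol synthesis, was measured at 252 and 255 RPKM in NSC-Scramble and 52.9 and 52.2 RPKM in Ctrl1. Scd1 and Scd2 introduce the double bond into fatty acids; Scd1 stood at 96.4 and 63.9 RPKM in NSC-Scramble and 1.45 and 1.17 RPKM in Ctrl1 and Scd2 at 798 and 604 against 124 and 128 RPKM. Their regulators Srebf1 and Srebf2 were higher by 3.05 and 1.51 in log2, whereas Acly, which supplies acetyl-CoA, was lower (121 and 103 against 204 and 215 RPKM). Of 28 glycolysis genes 10 were higher and 12 lower, beside 44.6% and 35.3% of all genes tested. Pkm was at 208 and 150.2 RPKM in NSC-Scramble and 526 and 537 RPKM in Ctrl1, and Ldha at 129 and 82 against 231 and 232 RPKM. Vegfa, a hypoxia target placed in that list, was at 44.2 and 37.7 against 0.228 and 0.277 RPKM.

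Peroxisomes are the subject of the series' perturbations, since PEX7 imports the ether lipid enzyme Agps and others into them. Pex7 itself was at 1.19 and 1.22 RPKM in NSC-Scramble and 1.27 and 1.18 RPKM in Ctrl1 (log2 difference -0.01, adjusted p = 0.938), with values that overlap between the groups. Of 18 peroxin and fission genes 6 were higher and 6 lower, none by 4-fold, beside 44.6% and 35.3% of all genes tested. With the GC and length trend removed 3 were higher and 9 lower. Pex5, the receptor for most imported enzymes, did not pass the test (22.7 and 23.2 against 20.7 and 19.1 RPKM), while Pex13 (-1.75) and Pex14 (-1.22), which form the docking complex, were lower. Of 29 enzymes and transporters 15 were lower and 7 higher, with a median of -0.56 (-0.88 with the GC and length trend removed). Catalase (Cat) stood at 30.9 and 28.3 RPKM in NSC-Scramble and 82.5 and 83.1 RPKM in Ctrl1, the transporter Abcd2 at 1.82 and 1.88 against 18.4 and 18.7 RPKM and Abcd3 at 15.5 and 14 against 3.34 and 3.50 RPKM.

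Of 15 ether lipid synthesis genes 6 were higher and 6 lower, near the shares of all genes tested (44.6% and 35.3%). Gnpat, which performs the first step, was at 24.9 and 21.9 RPKM in NSC-Scramble and 66.7 and 66.2 RPKM in Ctrl1 (log2 difference -1.47, SE 0.10, adjusted p = 2.48e-05). Agps, which performs the next one, did not pass the test, at 8.57 and 8.0 RPKM in NSC-Scramble and 6.08 and 7.20 RPKM in Ctrl1, and Far1, which supplies the fatty alcohol, was lower by a small margin (13.4 and 15.6 against 18.2 and 17.7 RPKM) that did not pass without the first NSC-Scramble library (adjusted p = 0.107) or without either Ctrl1 library (0.195 and 0.151). Tmem86a, a lysoplasmalogenase, stood at 4.22 and 5.40 RPKM in NSC-Scramble and 40.5 and 39.7 RPKM in Ctrl1. Plaat3, the phospholipase named in the genotype of PLA1, was too low to be tested in all 4 control libraries, at 0.690 and 0.409 RPKM in NSC-Scramble and 0.413 and 0.431 RPKM in Ctrl1. Of 12 related phospholipase and acyltransferase genes 4 were higher and 4 lower (2 and 8 with the GC and length trend removed), with Pla2g7 at 4.40 and 4.44 RPKM in NSC-Scramble and 18.5 and 17.9 RPKM in Ctrl1 and Lpcat4 at 10.2 and 11.2 against 0.779 and 0.623 RPKM.

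Respiratory chain genes were unequal even within one complex. Of 37 nuclear complex I genes 18 were higher and 14 lower, near the 44.6% and 35.3% of all genes tested. Of 41 genes of complexes II to V 26 were higher and 9 lower, 14 of the higher ones by at least 4-fold. Ndufb6, a small accessory subunit of complex I, was measured at 59.4 and 66.6 RPKM in NSC-Scramble and 0.519 and 0.865 RPKM in Ctrl1, whereas the core subunit Ndufs1 was at 11.9 and 10.7 against 21.6 and 21.9 RPKM. In ATP synthase, Atp5o stood at 53.2 and 55.7 RPKM in NSC-Scramble and 0.595 and 0.844 RPKM in Ctrl1, Atp5b at 238 and 216 against 736 and 688 RPKM, and Atp5a1 did not pass the test (251 and 226 against 242 and 228 RPKM). Subunits assembled in fixed proportion thus differed in opposite directions. Of 13 mitochondrially encoded mRNAs 10 were higher and 2 lower, with ND5 at 919 and 984 RPKM in NSC-Scramble and 115 and 102 RPKM in Ctrl1 and COX1 at 4228 and 4684 against 2741 and 2187 RPKM. COX1 did not pass without the first or without the second Ctrl1 library (adjusted p = 0.291 and 0.456). Among antioxidant genes 16 of 27 were higher and 7 lower; Ftl1, the ferritin light chain, was at 351 and 335 RPKM in NSC-Scramble and 2634 and 2524 RPKM in Ctrl1 and Sod1 at 28.3 and 26.4 against 2.85 and 2.53 RPKM. Of 28 autophagy and lysosome genes 12 were higher and 14 lower, beside the same shares of all genes. Cathepsin B (Ctsb), abundant in macrophages, was at 28.7 and 29.8 RPKM in NSC-Scramble and 108 and 109 RPKM in Ctrl1. Cathepsin D (Ctsd) stood at 39.6 and 40.1 against 5.80 and 5.96 RPKM.

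Cytosolic ribosomal protein genes showed the same inequality on a larger scale; this list was taken after its values had been seen. Their products are needed in equal numbers in each ribosome. Of 78 tested, 62 were higher, 31 of them by at least 4-fold, and 9 lower, with a median of 1.73. Rps15 stood at 399 and 349 RPKM in NSC-Scramble and 6.52 and 4.38 RPKM in Ctrl1, a log2 difference of 5.88 (SE 0.17, adjusted p = 2.91e-06). The stage brains held 905 to 1606 RPKM of it and the PLA1 libraries 4.52 and 4.87 RPKM, so the low value was shared by the 4 libraries of that table. Rps29 was at 79.2 and 70.4 RPKM in NSC-Scramble and 1.91 and 1.17 RPKM in Ctrl1, while Rpl4 (399 and 316 against 1369 and 1189 RPKM) and Rps6 (233 and 191 against 525 and 463 RPKM) were higher in Ctrl1. The list summed to 10817 and 8895 RPKM in NSC-Scramble, 7869.6 and 6369.6 RPKM in Ctrl1 and 20732 to 33549.6 RPKM in the stage brains. Ribosomal protein genes have many processed pseudogenes, and reads may have been split or lost between the copies.

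Ctrl1 departed from the stage brains at a set of such genes, and NSC-Scramble did not. Of 1471 protein-coding genes with at least 20 RPKM in both NSC-Scramble and all 6 stage libraries, 88 (5.98%) were more than 10 times below the lowest of these in both Ctrl1 libraries; these thresholds were chosen after the values had been seen. In 71 of the 88, both PLA1 libraries were below that level too. The reverse count, genes that low in NSC-Scramble alone, was 0 of 1139. Sox2, Jund, Hnrnpa0, Ndufb6, Atp5o and Rps15 are among those low in Ctrl1, a set that crosses transcription, RNA binding, respiration and translation. Grik5, Cdk5r1, Nr2f1 and Rps29, whose differences are given above, belong to the same set. Jund, an AP-1 subunit, read 70.6 and 75.1 RPKM in NSC-Scramble and 0.205 and 0.228 RPKM in Ctrl1, and Hnrnpa0, an RNA-binding protein, 285 and 249 against 8.31 and 10.8 RPKM. Jund and Hnrnpa0 were named after their values had been seen, and 52.6% of the exon sequence of Jund lies under a gene on the opposite strand. The median GC content of these genes was 56.1%, against 52.5% for all that could have met the rule, and the median exon length 2528 against 3001 bases. Conversely, 22 of 2455 genes exceeded 10 times every NSC-Scramble and stage library in Ctrl1 alone, among them C1qa, C1qb, Ctss, Lyz2, Tmem119, Bst2, Rtp4 and Usp18, all microglial or interferon genes. For NSC-Scramble alone that count was 3 of 2445, and Egr1 was one of them.

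**Figure D3:**
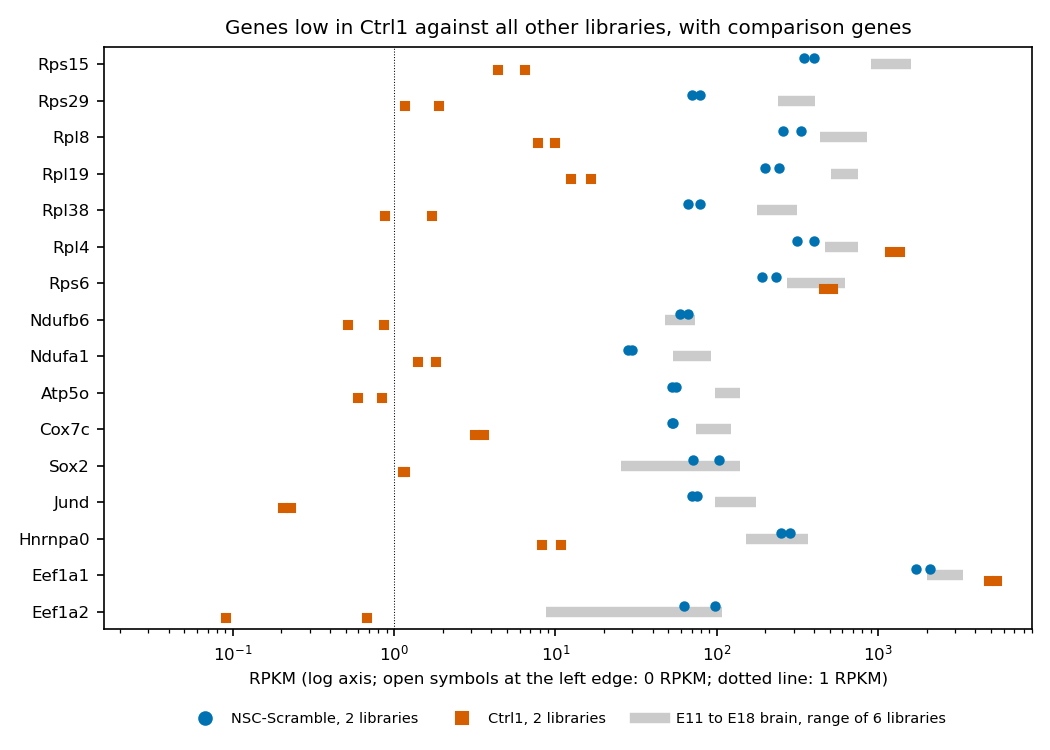
RPKM on a log axis for 16 genes: circles are NSC-Scramble, squares Ctrl1, and grey bars the range of the embryonic brain libraries. For most of them the Ctrl1 squares lie far left of every other library, while Rpl4, Rps6 and Eef1a1 lie within or to the right of the bars.

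The difference also followed base composition. Among protein-coding genes with under 40% GC in their exons the median log2 difference was -0.21 (380 genes), and it was higher in each further bin, up to 1.64 at 60% and over (477 genes), where 39.8% of genes were at least 4-fold higher. In that last bin NSC-Scramble stood 0.009 from the mean of the stage libraries and Ctrl1 -1.41. Under 40% GC the medians against the stages were 0.41 for NSC-Scramble and 0.56 for Ctrl1. By exon length, NSC-Scramble minus the stages rose in each bin, from -0.61 under 1500 bases to 0.67 at 8000 bases and over. Ctrl1 minus the stages was -0.60 and 0.097 in those bins, so both groups departed from the stages with composition or length. Across 11747 genes Spearman's rho with GC content was 0.188 and with exon length 0.191, as a description across genes. When a GC and length trend was removed from each library, an alternative chosen after the data had been seen, the microglial, interferon and proneural medians were -3.02, -2.97 and -2.66, and those of the interneuron and FGF-ERK lists 1.97 and 2.17. The radial glial median went from 0.58 to 0.09 and the Notch median from 0.89 to 0.09, while Sox2, Olig2 and Rps15 still differed by 5.57, 6.17 and 4.87. Genes called higher and lower then numbered 13 and 12 in the radial glial list, 9 and 8 in the Notch, 3 and 5 in the Hedgehog, 9 and 6 in the Wnt, 17 and 8 in the matrix and 6 and 16 in the autophagy and lysosome list. The part of GC content in the differences between the groups was otherwise not tested.

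**Figure D4:**
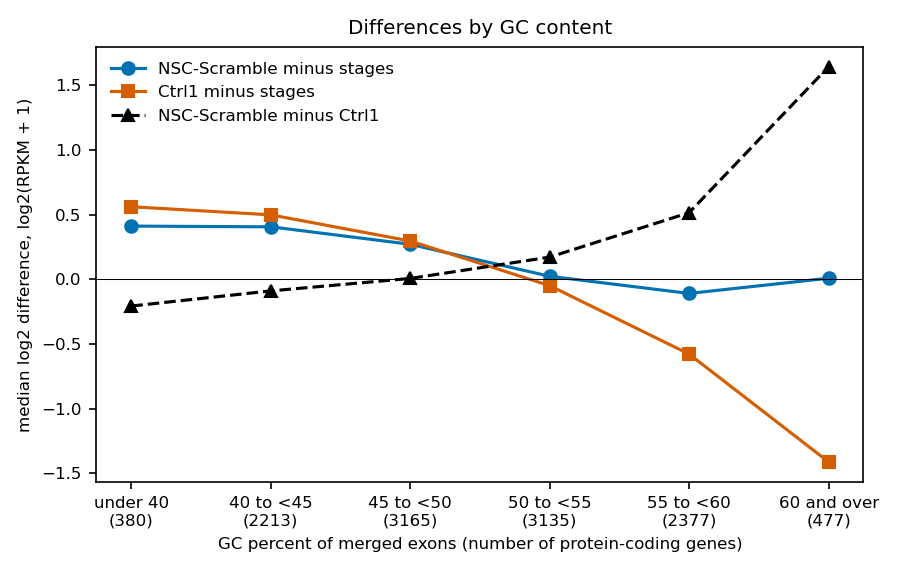
Median log2 difference by GC content of the exons, for NSC-Scramble minus Ctrl1 (triangles) and for each group minus the mean of the 6 stage libraries (circles and squares). The Ctrl1 line falls to -1.41 at 60% GC and over, where the NSC-Scramble line lies at 0.009.

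Many housekeeping functions exist in a broad and a neuronal form, and 24 such pairs compare genes of the same role. The broad form was higher in 6 and lower in 12 pairs, and the neuronal form higher in 15 and lower in 3. Among all genes tested 44.6% were higher and 35.3% lower. The median log2 differences were -0.28 for the broad and 0.72 for the neuronal forms. The gap, broad minus neuronal, was negative in 16 of 24 pairs and positive in 8, a count of signs without a test. Some gaps were small, such as -0.089 for Elavl1 with Elavl4, -0.10 for Cyfip1 with Cyfip2 and 0.003 for Ap3b1 with Ap3b2. Actl6a and Actl6b are the progenitor and neuronal subunits of the BAF chromatin complex: Actl6a was at 14.9 and 11.6 RPKM in NSC-Scramble and 72.3 and 76.6 RPKM in Ctrl1 and Actl6b at 17.2 and 19.7 against 12.3 and 12.8 RPKM, a difference that was -0.05 with the GC and length trend removed and did not pass without the first Ctrl1 library (adjusted p = 0.0515). The kinesins Kif5b and Kif5a differed by -0.47 and 1.71, the glucose transporters Slc2a1 and Slc2a3 by -2.01 and 0.74, and the dynamins Dnm2 and Dnm1 by 0.09 and 4.07, of which Dnm2 did not pass the test and was -0.61 with the GC and length trend removed. The largest contrast was that of the elongation factors, with Eef1a1 at 2107 and 1724 RPKM in NSC-Scramble and 5461 and 4840.3 RPKM in Ctrl1 and Eef1a2 at 62.5 and 97.4 against 0.680 and 0.0912 RPKM. Eef1a1 did not pass without the first or without the second Ctrl1 library (adjusted p = 0.14 and 0.106). Phf10 and Dpf3, another BAF pair, went the other way, with 2.76 for Phf10 and 0.53 for Dpf3, which passed only without the second Ctrl1 library (0.89) among the fits with a library left out.

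**Figure D5:**
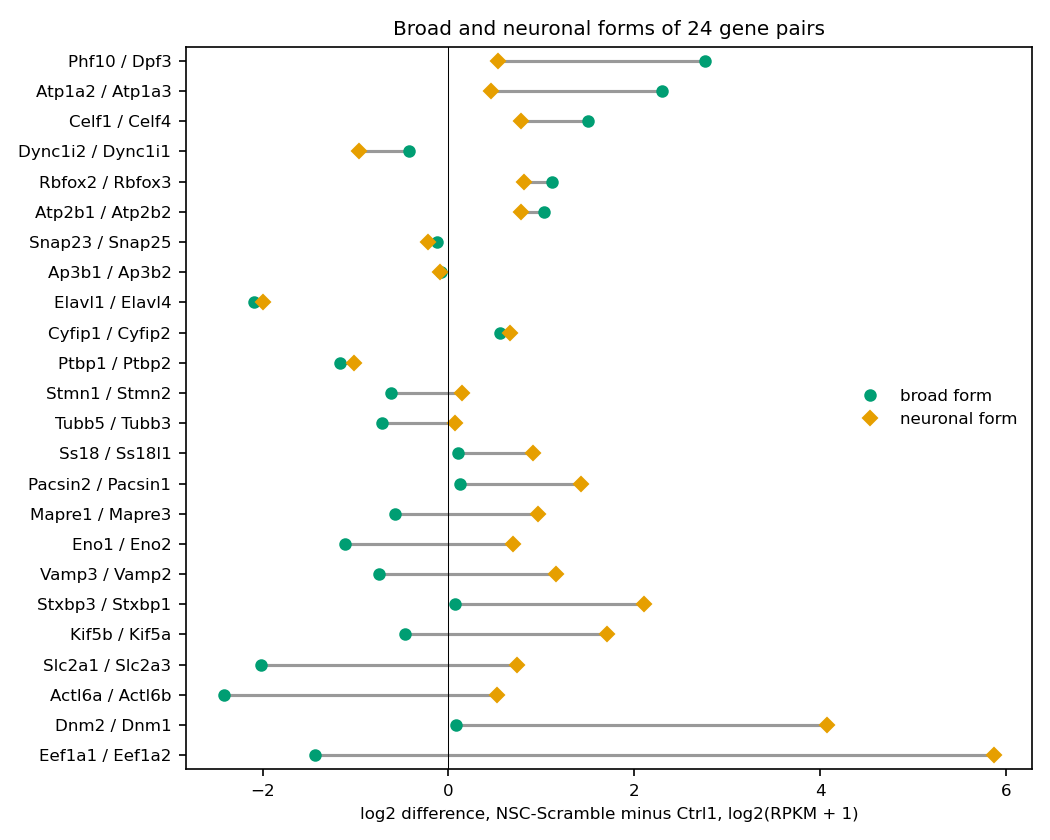
Log2 difference (NSC-Scramble minus Ctrl1) of the broad form (circles) and the neuronal form (diamonds) of 24 gene pairs, joined by a line and ordered by the gap. Eef1a1 with Eef1a2 and Dnm2 with Dnm1 have the longest gaps, with the neuronal form to the right.

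Among the 15 genes with the largest difference in each direction, those lower in NSC-Scramble were mostly microglial or interferon genes. Beside the ones already named they included Phf11b (0 and 0.0920 against 39.4 and 39.9 RPKM), Mfap4, a matrix protein (1.72 and 1.25 against 86.4 and 84.8 RPKM), Lgals9, a galectin of immune cells (0.652 and 0.433 against 39.5 and 39.9 RPKM), Lpar1, a receptor for lysophosphatidic acid (0.813 and 0.927 against 39.6 and 43.6 RPKM), and C1qc, Tgfbi, Ms4a6d and Ifi47, whose log2 differences lay between -4.55 and -4.34. On the higher side stood Cacng7, a regulator of AMPA receptors (57.5 and 72.6 against 0.0601 and 0 RPKM), Camk2n2, an inhibitor of CaMKII (62.1 and 88 against 0.303 and 0.184 RPKM), Chmp4b, a subunit of the ESCRT membrane-scission complex (72.4 and 71.1 against 0.965 and 0.234 RPKM), and Dynll2, a dynein light chain (112 and 142 against 1.75 and 2.10 RPKM), with Lmtk3, Fam171a2 and Agap2 between 5.38 and 5.74 in log2. Of these higher genes, Cacng7, Chmp4b, Dynll2, Fam171a2, Lmtk3, Jund and Rps15 belong to the 88 that were low in Ctrl1 against every other library.

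RNA of the inactive X chromosome and of the Y chromosome was read in each group. Xist, which is transcribed from the inactive X and overlapped by its antisense partner Tsix, was measured at 33.7 and 37.4 RPKM in NSC-Scramble and 5.26 and 4.94 RPKM in Ctrl1, and the Y-linked Ddx3y at 7.54 and 8.57 against 9.07 and 9.54 RPKM (adjusted p = 0.171). Eif2s3y, also on the Y chromosome, stood at 12.2 and 13.9 RPKM in NSC-Scramble and 4.78 and 4.04 RPKM in Ctrl1. Xist and Eif2s3y were higher in NSC-Scramble, and Ddx3y did not pass the test.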

How the data were processed

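The authors deposited gene tables in RPKM, 1 table holding NSC-Scramble with NSC-Pex7sh, 1 holding Ctrl1 with PLA1, and 1 the embryonic brain libraries. Per the labels' protocols, total RNA was taken up in Trizol and 2 ug entered each library. The submitters' processing notes name STAR 2.7.9a, HTSeq 0.6.0 and mm10; strand handling is not given in the sources used here. RPKM multiplied by merged exon length (GENCODE M21) gave whole reads within 0.01 for 97.9% of 22944 genes in all 4 libraries, from which totals of 17215545 to 21041184 reads per library followed, and both tables proved to use the same lengths.

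Values were tested as log2(RPKM + 1) with limma 3.58.1 (R 4.3.3, mean-variance trend), NSC-Scramble 1 and 2 against Ctrl1 1 and 2, keeping genes whose mean reached 1 RPKM, with Benjamini-Hochberg adjustment over all genes tested. On simulated libraries of 12513 genes, 200 of them changed, 29.9% of 1.5-fold and 95.5% of 2-fold changes were recovered. The changed genes were drawn only from those with ample reads, at a fixed spread, so these rates do not describe genes with few reads. Of the calls 17.6% were unchanged genes, nearly all of them under 300 bases. That share belongs to a setting with few changed genes, whereas 79.9% were called in the data. Members and lists were chosen with earlier results of these data known, so a list is described by counts and its median without a test of its own. Named genes are the defining members of each list, up to 6 others with the largest called difference and up to 3 with the highest level, the 15 most extreme genes in each direction at 5 RPKM or more, and the paralog pairs. The 4-fold limit, the motif search, the ribosomal list, the comparison with stage levels, and Abcd3, Chga, Cxcl10, Epha3, Gbp2, Grb10, Hes1, Hey1, Hnrnpa0, Hopx, Ifit3, Irf7, Nrp1, Ntrk2, Pax6, Rsad2, Slc17a6, Snurf, Sox9, Sp8 and Tyrobp were chosen after their values were seen. Alternatives were other pseudocounts, filters and scalings, left-out libraries, a replicate block, a fit over 8 libraries, no trend, voom on recovered reads, and, added after the data were seen, removal of a GC and length trend per library and a minimum of 300 bases.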

Additional observations from a re-analysis of the deposited data

How the results depend on the processing

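Of all genes tested, 8567 to 9532 were called with 1 library left out, 4876 to 5302 of them higher and 3691 to 4230 lower in NSC-Scramble, and 1374 to 1477 at least 4-fold higher and 508 to 596 at least 4-fold lower; there the lone library of a group is assumed to vary like the other pair. The genes called higher numbered 3514 where a mean of at least 5 RPKM was required. Genes at least 4-fold higher numbered 2306 with a pseudocount of 0.1, 2302 with limma-voom on recovered reads and 894 with the GC and length trend removed, and those at least 4-fold lower 872 with that pseudocount and 891 with voom. The share of higher among called genes was 55.8%, 50.5% under median-ratio scaling and 47.0% with the GC and length trend removed. At a mean of at least 5 RPKM the medians of the G1 cyclin, Hedgehog, Wnt, ether lipid and unfolded protein response lists turned to -0.39, -0.19, -0.051, -0.30 and -0.30, where fewer genes were tested. The Hedgehog median was -0.29 with the GC and length trend removed, and that of complex I -0.017 under median-ratio scaling. Actl6b and Dnm2 turned to -0.052 and -0.61 with the GC and length trend removed, and the cause was not tested. Of the named genes' alternative values 3265 stayed on their side of the threshold, 24 lost and 52 gained a call, and 2 were reversed in sign.

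The correlation of deviations between libraries of the same number was 0.0187, so no deviation shared by number was seen. Whether libraries of the same number were prepared together cannot be read from that value. With the replicate number as a block, 5609 genes were higher and 4428 lower. With 2 libraries a group, 1 source in each table and reads shared between gene copies, neither the table nor the source can be separated, and levels under 1 RPKM rest on few reads.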

Other observations

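Secreted peptides and their processing enzymes were unequal between the groups: of 19 neuropeptide, granin and trophic genes tested 11 were higher and 5 lower in NSC-Scramble (background 44.6% and 35.3%). Secretogranin Scg2 was measured at 38.7 and 77.7 RPKM in NSC-Scramble and 1.61 and 2.17 RPKM in Ctrl1, the processing enzyme Cpe at 186 and 244 against 14.6 and 17.8 RPKM, and chromogranin Chga, of the same granules, was lower (16.6 and 23 against 70.9 and 69.3 RPKM). Ngfr, the low-affinity neurotrophin receptor, stood at 0.742 and 1.44 RPKM in NSC-Scramble and 21.6 and 23.2 RPKM in Ctrl1, and Ntrk2, the BDNF receptor, at 14.7 and 16.2 against 3.44 and 3.52 RPKM.

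Of 21 imprinted genes tested 13 were higher and 4 lower. Peg10 was measured at 52.9 and 42.1 RPKM in NSC-Scramble and 0.154 and 0.356 RPKM in Ctrl1 and the noncoding Meg3 at 92.3 and 119 against 3.81 and 4.63 RPKM, while Grb10 (-1.55) and Snrpn (-1.22) were lower. Of 19 long noncoding RNAs tested 13 were higher and 6 lower. Igf2, abundant in meninges, was at 0.0812 and 0.162 RPKM in NSC-Scramble and 0 and 0 RPKM in Ctrl1 and was not tested. Of 34 axon guidance genes 23 were higher and 5 lower (17 and 11 with the GC and length trend removed); the guidance cue Ntn1 was at 12.3 and 8.75 RPKM in NSC-Scramble and 0.0545 and 0.0379 RPKM in Ctrl1, the receptor Plxna4 at 24.6 and 28 against 3.27 and 4.18 RPKM, and the receptors Epha3 (-2.23) and Nrp1 (-1.83) were lower.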
